A study of Mus musculus with 8 samples.

Results

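The collagen gene family was examined in bulk RNA-seq of sorted mouse dorsal skin cells. Its members were all genes whose symbol follows the pattern of a collagen α chain (Col, a type number, a, and a chain number), apart from Col17a1. By this rule 39 of the 24755 genes listed for either cell type were collagens. All 39 were listed among the 23861 genes of the hair follicle stem cell (HFSC) data, and 17 of them among the 16231 genes of the epidermal stem cell (EpdSC) data. In EpdSCs the other 22 were not analysed here.

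Each collagen chain holds stretches of Gly-X-Y triplets, each opening with glycine, and 3 such chains wind into a triple helix. Type IV chains form the sheet-like network of basement membranes, type VII forms anchoring fibrils that tie the epidermal basement membrane to the dermis, type VI forms beaded filaments near cells, and types I and V form the banded fibrils of connective tissue. FACIT collagens (XII, XIV, XVI and XX among the members) attach to fibrils or matrix networks, type VIII is a short-chain network collagen, and types XV and XVIII are multiplexins of basement membrane zones. In skin, fibril collagens are made mainly by fibroblasts, while keratinocytes add type IV and type VII to the basement membrane on which they sit.

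The 8 libraries fell into 4 groups of 2. WT mice were C57BL/6J, and the Msx2-KO mice carried an allele in which a neo cassette sits upstream of exon 2 of Msx2, which encodes a homeobox transcription factor. HFSCs were sorted as CD34+CD49f+Sca-1- and EpdSCs as CD34-CD49f+Sca-1+, all from skin labelled as telogen, the resting phase of the hair cycle, and without treatment. WT HFSC mice were 2 months old and Msx2-KO HFSC mice 6 months, so age and genotype cannot be told apart in HFSCs, whereas all EpdSC mice were 6 months old. The comparison of genotypes asked how loss of Msx2 bears on expression in these cells. Nothing in the labels ties a library to 1 animal or to a pool, so the tests measure only the spread between these libraries. Library names in the file headers follow a different numbering for WT and Msx2-KO in both cell types, so a batch and the genotype cannot be told apart either.

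Estimated counts in HFSC libraries totalled between 3132974 and 11016659, of which between 1835277 and 4735064 fell on nuclear genes other than ribosomal RNA. Both mitochondrial ribosomal RNA (8.94% and 36.3% of all counts in WT, 49.4% and 53.2% in Msx2-KO) and the share of genes without a count (4.17% and 15.2% in WT, 50.8% and 38.7% in Msx2-KO) were higher in Msx2-KO HFSCs. Genes listed at 0 were likewise more frequent in Msx2-KO EpdSCs (20.2% and 5.82%) than in WT EpdSCs (1.73% and 1.29%), whereas mitochondrial ribosomal RNA was lower there (0.073% and 6.18%, against 23.5% and 16.4% in WT). Pearson correlations of log2 values over genes were 0.929 between WT and 0.581 between Msx2-KO libraries in HFSCs, and 0.952 and 0.844 in EpdSCs. Msx2 itself, the targeted gene, had 53 and 7 counts in WT HFSCs and 40 and 18 in the HFSC libraries labelled Msx2-KO. In EpdSCs its values were 58.5 and 85.4 in WT, against 150.3 and 22.2 in those labelled Msx2-KO. Its levels did not separate the genotypes in either cell type, so Msx2-KO stands for libraries labelled so throughout, and every direction below rests on those labels. The HFSC marker list, with Krt15 and Cd34, was high in all HFSC libraries, with summed normalized counts of 53299 and 50556 in WT, against 25889 and 27985 in Msx2-KO. Most of this sum was Krt15 and Postn, both lower in Msx2-KO. Of its 10 genes 8 lay lower in both Msx2-KO libraries, while Tcf7l1 lay higher (120 and 87.4, against 86.9 and 80.9 in WT). The interfollicular epidermis sum was higher in Msx2-KO (5132 and 17040.5, against 2105 and 2379 in WT) through Krt1, Krt10 and Dsg1a, while Thbs1, most of the WT sum, was lower (1183 and 1004, against 1678 and 2134). Of the fibroblast list, 7 of 12 genes were analysed in HFSCs, with sums of 111 and 43.2 in WT, against 57.6 and 102 in Msx2-KO, and Pdgfra, Mfap5, Pi16 and Dpp4 were at 0 in both Msx2-KO libraries. Sums that lay lower in both Msx2-KO than in both WT HFSC libraries were those of the basal keratinocyte, dermal papilla, endothelial and melanocyte lists, the last with 1074 and 1210.1 against 508 and 293, while the mural and skeletal muscle sums lay higher. Each of these higher sums was 1 gene in Msx2-KO, Notch3 (112 and 145) and Acta1 (179 and 38.97), with the other mural genes (Rgs5, Pdgfrb, Myh11 and Des) and muscle genes (Ckm and Myh4) at 0 in both. Within the basal keratinocyte list only Krt14 was higher in both Msx2-KO libraries (4779 and 4102, against 3552 and 3716 in WT). The lower melanocyte sum lay mostly in Mitf (990 and 1036 in WT, against 236 and 194), while Dct overlapped (58.7 and 113, against 271 and 80.3). In Msx2-KO replicate 1 the endothelial sum was Kdr alone (33.9) and the dermal papilla sum mostly Notum (30.3). The Schwann, adipocyte and immune sums overlapped between genotypes in HFSCs. In EpdSCs the HFSC sum was higher in both Msx2-KO libraries (311700.0 and 221230.0, against 90135 and 108740.0 in WT). Most of the HFSC sum was Krt15 and Itga6, the latter also in the basal keratinocyte list. Lgr5, Tcf7l1 and Postn were higher too, while Lhx2, Sox9, Nfatc1 and Foxc1 overlapped. Also higher were the basal keratinocyte sum (through Krt14 and Itga6, with Itgb4 lower), the Schwann sum (almost all Mbp, with Egfl8 lower) and the fibroblast sum. The interfollicular epidermis, endothelial, mural and immune sums were lower, and the dermal papilla, melanocyte, adipocyte and skeletal muscle sums overlapped. Within the interfollicular list Krt1, Krt10 and Thbs1 were lower, but Ly6a (826 and 3493, against 472 and 544 in WT) and Mt4 were higher. The mural sum was almost all Notch3, and Pecam1 of the endothelial list was higher in both Msx2-KO libraries. The EpdSC fibroblast sum (4 of 12 genes) was 1072 and 336 in WT, against 2302 and 1196 in Msx2-KO and was mostly Thy1, while Vim and Pi16 were listed at 0 in both Msx2-KO libraries. What part these differences have in the collagen values was not tested.

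The repeat that defines the family can be read in the coding sequence. The longest coding transcript of each of the 39 members (GENCODE M21, GRCm38) held between 34 and 471 Gly-X-Y triplets in runs of at least 5, the fewest in Col26a1 and the most in Col7a1. The stretches below are shown because results turn on these 3 chains. Each is the first 10 triplets of the longest run, 5′ to 3′ on the coding strand, with glycine codons in capitals. They cover codons 271 to 300 of Col6a2, 822 to 851 of Col4a6 and 2518 to 2547 of Col7a1.
Col6a2: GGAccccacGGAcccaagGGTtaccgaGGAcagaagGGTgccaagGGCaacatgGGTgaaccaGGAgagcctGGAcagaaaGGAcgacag
Col4a6: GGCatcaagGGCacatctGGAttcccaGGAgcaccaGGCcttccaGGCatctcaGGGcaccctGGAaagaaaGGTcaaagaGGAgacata
Col7a1: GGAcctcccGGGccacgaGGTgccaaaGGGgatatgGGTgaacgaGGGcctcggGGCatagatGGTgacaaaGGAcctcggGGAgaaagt
The type VI chain carries a short helix of 110 triplets in 1034 codons (31.9% of the codons), whereas triplets made up 76.1% of Col4a6 and 48.0% of Col7a1. In Col12a1, a FACIT with long non-helical parts, they made up 8.1%.

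In HFSCs, 11 of the 24 tested collagens were lower in both Msx2-KO libraries, and Col4a6 alone was higher in both. Among those lower were type VI (Col6a1 and Col6a2), the FACIT chain Col12a1 and the fibril chain Col5a2. In bulk libraries, fewer cells of a type and less RNA per cell cannot be told apart. A call required an adjusted p (Benjamini-Hochberg, edgeR's quasi-likelihood test) under 0.05 with a fold change over 2. It was met by no collagen and by no gene of the 14422 tested (0% higher and 0% lower). Of the 39 members, 24 passed the filter on low counts. Both Msx2-KO libraries lay below both WT libraries for 11 of the 24 and above for 1, against 33.5% of all tested genes below and 17.5% above. At an unadjusted p under 0.05 and a fold change over 2, 4 members were lower and 1 higher, against 12.2% and 5.02% of all tested genes. The median log2 fold change was -0.34 over the 24 members and -0.14 over all tested genes, both below zero. With library totals instead of TMM, the scaling moved the median over all genes to -1.0 and that over the members to -1.30, and left 12 members below (50%) and 1 above. All genes then stood at 49.8% below and 5.94% above, so the larger share of collagens below WT seen with TMM was not seen with this scaling. Library totals include the mitochondrial ribosomal RNA given above. Without mitochondrial and ribosomal RNA genes, 52.4% of 21 members lay below, against 34.6% of all genes. With at least 10 counts in every library, 66.7% of 15 members did, against 24.5%. No member was called in these fits, and the reason for the dependence on scaling was not tested. DESeq2 on the same counts called 1 collagen higher (Col4a6) and 2 lower (Col12a1 and Col6a2), against 2.24% and 2.43% of the genes. Limma-trend called 0 collagens, against 158 genes higher and 1249 lower. Its adjusted p was 0.0597 for Col4a6, 0.0661 for Col12a1 and 0.0791 for Col6a2.

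**Figure D1:**
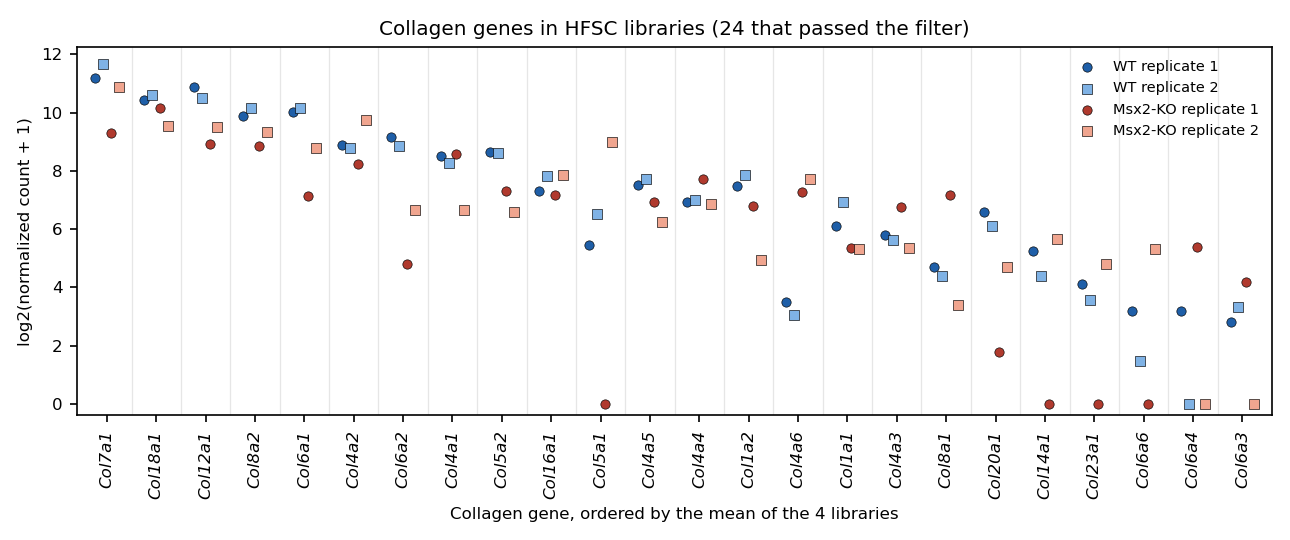
Normalized counts of the 24 collagen genes tested in HFSCs, as log2(normalized count + 1), with genes ordered by their mean and 1 point for each of the 2 WT and 2 Msx2-KO libraries. Col6a1, Col6a2, Col12a1 and Col5a2 show both Msx2-KO points under both WT points, Col4a6 shows the reverse, and in the lower-count genes the Msx2-KO points often include a value of 0.

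Type VI collagen is built from an α1 chain (Col6a1), an α2 chain (Col6a2) and 1 of several further chains. Both lie on the minus strand of chromosome 10 of GRCm38, Col6a2 from 76595762 to 76623630 and Col6a1 from 76708792 to 76726168. Col6a1 had 1039 and 1133 normalized counts in WT, against 141 and 440.4 in Msx2-KO. Both Msx2-KO libraries lay below WT but differed widely from each other, and the log2 fold change was -1.91 (SE 0.61, adjusted p = 0.22 from edgeR and 0.0612 from DESeq2). Col6a2 had 575 and 468 in WT, against 26.7 and 100.4 in Msx2-KO, which was the lowest fitted log2 fold change among the tested members at -3.05 (SE 0.74, adjusted p = 0.143, and 0.00612 from DESeq2). Per exon length, Col6a1 exceeded Col6a2 by 3.44 and 4.61 times in WT and by 10.02 and 8.34 times in Msx2-KO. The α2 chain thus lay further down than its partner in these Msx2-KO libraries. Merged exons are 8326 bases long for Col6a2 and 4380 for Col6a1, although the coding parts are alike (1034 and 1025 codons). The size of these ratios therefore depends on the length used, whereas their order between the genotypes does not. The further chains were near zero, with Col6a3 between 0 and 16.97, Col6a4 between 0 and 40.6 and Col6a6 between 0 and 38.97 normalized counts, and in each of these the genotypes overlapped.

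In the basement membrane network, type IV chains come in pairs encoded head to head, and the 6 chains did not share a direction. Col4a6 had 10.4 and 7.19 normalized counts in WT HFSCs, against 155 and 211 in Msx2-KO HFSCs. Both Msx2-KO values lay far above WT, with a log2 fold change of 4.34 (SE 0.66, adjusted p = 0.143 from edgeR and 0.000589 from DESeq2). Its partner Col4a5, the α5 chain, had 182 and 209 in WT, against 119.98 and 74.4 in Msx2-KO, without overlap in the opposite direction (log2 fold change -1.0, SE 0.46, adjusted p = 0.393). Per exon length the ratio of Col4a6 to Col4a5 was therefore 0.0481 and 0.0291 in WT, where α6 mRNA was the minor one, and 1.09 and 2.39 in Msx2-KO, where it equalled or exceeded α5. The raw counts behind Col4a6 in WT were 14 and 4, so the WT end of this ratio is imprecise.

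Both Col4a1 and Col4a2, the chains of the common type IV network, overlapped between genotypes. Col4a1 had 362 and 308 normalized counts in WT, against 382 and 99.2 in Msx2-KO, and Col4a2 had 478 and 439 in WT, against 298 and 851 in Msx2-KO. Within Msx2-KO the partners went apart, with a Col4a1 to Col4a2 ratio per exon length of 1.14 in replicate 1 and 0.103 in replicate 2, against 0.672 and 0.621 in WT. Scaling by library totals turned Col4a2, Col4a3 and Col4a4 to the negative side (-0.61, -0.29 and -0.41), and none was called. Exons of Col4a1 and Col4a2 overlap by 22 bases, and the use of strand during counting is not given in the sources used here. The α3 and α4 chains were lower in count and also overlapped. Col4a3 had 55.0 and 48.4 in WT, against 108 and 40.1 in Msx2-KO, and Col4a4 had 122 and 126 in WT, against 209.7 and 116 in Msx2-KO.

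Col7a1, the anchoring fibril chain, was among the 3 highest members per kb of exon in every HFSC library. It had 2347 and 3264 normalized counts in WT, against 631 and 1887 in Msx2-KO, with a log2 fold change of -1.16 (SE 0.61, adjusted p = 0.463). Both Msx2-KO values lay below WT, but replicate 1 by much more than replicate 2. Col18a1, whose C-terminal fragment is endostatin, had 1392 and 1556 in WT, against 1142 and 749.8 in Msx2-KO, again without overlap but with a smaller log2 fold change of -0.64 (SE 0.30, adjusted p = 0.407).

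Among the FACITs, Col12a1 (chromosome 9, 79598991 to 79718831) separated the genotypes. It had 1877 and 1442 normalized counts in WT, against 484 and 719 in Msx2-KO, with a log2 fold change of -1.47 (SE 0.32, adjusted p = 0.143 from edgeR and 0.0243 from DESeq2). Col20a1 had 95.2 and 68.3 in WT, against 2.42 and 24.8 in Msx2-KO (log2 fold change -2.60, SE 1.45, adjusted p = 0.501). A sense-overlapping transcript shares exon sequence with Col20a1, so part of its reads cannot be assigned. Col16a1, with 157 and 227 in WT, against 144 and 231 in Msx2-KO, overlapped between genotypes, with a log2 fold change of -0.03 (SE 0.44) that turned to 0.01 under DESeq2. Col14a1 had 37.1 and 19.8 in WT, against 0 and 49.6 in Msx2-KO, and its groups overlapped.

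Of the short-chain network collagens, Col8a2 had 947 and 1137 normalized counts in WT, against 457 and 649 in Msx2-KO (log2 fold change -0.91, SE 0.29, adjusted p = 0.211). Its groups did not overlap, although the difference was under 2-fold. Col8a1, its partner in type VIII, was low and scattered, with 25.2 and 19.8 in WT, against 145 and 9.45 in Msx2-KO.

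The fibril-forming chains took less of the summed collagen level per kb (4.96% to 8.41%) than the basement membrane chains (10.4% to 25.8%). Col5a2 (chromosome 1, 45374321 to 45503282) had 398 and 396 normalized counts in WT, against 159 and 95.6 in Msx2-KO, with a log2 fold change of -1.63 (SE 0.38, adjusted p = 0.143). Its WT values were nearly equal, so the spread lay in Msx2-KO. Col1a2 had 179.7 and 230.2 in WT, against 111 and 29.5 in Msx2-KO (log2 fold change -1.53, SE 0.77, adjusted p = 0.442). Col1a1 had 67.6 and 120.5 in WT, against 39.4 and 38.97 in Msx2-KO (log2 fold change -1.26, SE 0.77, adjusted p = 0.547). In both type I chains the groups did not overlap, while the SE was large beside the difference. Col5a1, the usual partner of Col5a2, had 43.1 and 91.7 in WT, against 0 and 507 in Msx2-KO, a split between the Msx2-KO libraries that leaves no direction. Processed transcripts of the other strand overlap its exons.

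**Figure D2:**
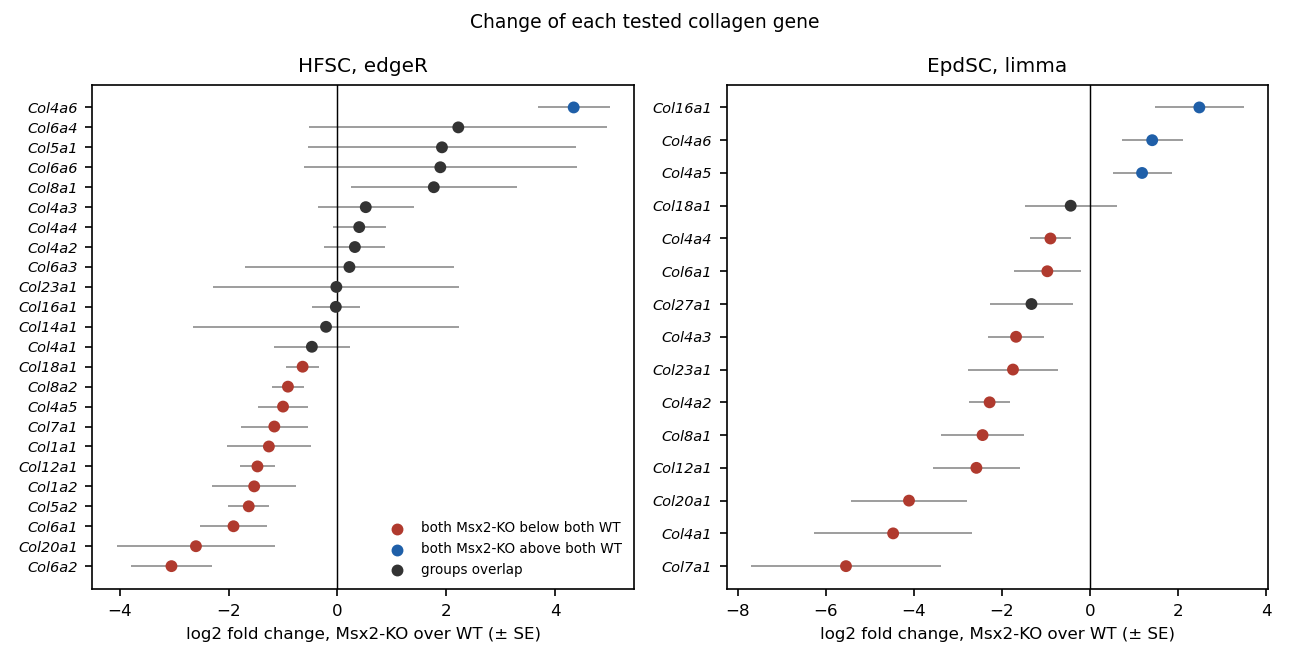
Log2 fold change of Msx2-KO over WT with its SE, from edgeR for the 24 tested members in HFSCs (left) and from limma on log2(value + 1) for the EpdSC members with a value above 0 in Msx2-KO (right), coloured by whether the libraries of the genotypes overlap. In HFSCs Col6a2 lies lowest at -3.05 and Col4a6 highest at 4.34, and in EpdSCs, with a pseudocount of 1, Col7a1 lies lowest at -5.54 and Col16a1 highest at 2.48.

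The remaining 15 members did not pass the filter in HFSCs, and none of them had more than 27 counts in a library. Among them were the multiplexin Col15a1, the transmembrane chains Col13a1 and Col25a1, and the FACITs Col19a1 and Col22a1. In WT, 38 and 33 members had a count, in Msx2-KO 21 and 24, and 12 members, none of them tested, were at 0 in both Msx2-KO libraries. Fewer genes of any kind had a count in the Msx2-KO libraries, as given above, and what part that has here was not tested. All members together took 0.369% of nuclear counts in WT replicate 1 (95% Wilson interval 0.363% to 0.375%) and 0.344% in WT replicate 2 (0.336% to 0.353%). In Msx2-KO they took 0.168% (0.164% to 0.172%) and 0.230% (0.224% to 0.235%), both below WT. These intervals cover counting error only.

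Leaving out a Msx2-KO library raised the number of calls over the whole transcriptome. Without Msx2-KO replicate 1, edgeR called 2 of 29 members higher and 8 lower, against 15.1% and 21.5% of all genes. Without Msx2-KO replicate 2 it called 4 of 29 higher and 15 lower, against 17.3% and 41.8%, so the shares of members called were near those of all genes. Both fits called Col4a6 higher and Col12a1, Col20a1, Col5a2, Col6a1 and Col6a2 lower, none of which edgeR called with all 4 libraries. These fits share both WT libraries, so they are not independent, and the share of all genes called in both was not computed. Col7a1 was called only without replicate 2 (log2 fold change -2.16, against -0.60 without replicate 1). Without WT replicate 2 Col6a2 was called lower (adjusted p = 0.031), and without WT replicate 1 no member was. A fit without 1 library leaves a lone sample, which is assumed to vary like the other group.

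In EpdSCs the direction differed between chains, also within a class. Type IV α5 and α6 and the FACIT Col16a1 were higher in both Msx2-KO libraries, while Col7a1, the α1 to α4 chains of type IV, Col8a1, Col23a1 and the other FACITs were lower. Values here are the authors' normalized values, and limma's test on log2(value + 1) called 2 of the 17 members lower (Col10a1 and Col6a6) and 0 higher, against 7.78% of the 16231 genes lower and 1.57% higher. No member was higher and 4 were lower at an unadjusted p under 0.05 and a fold change over 2, against 12.2% and 23.1% of all genes. Both Msx2-KO libraries lay below both WT libraries for 12 members and above for 3, against 44.5% below and 27.8% above. The median log2 fold change was -1.75 over the 17 members and -0.64 over all genes.

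**Figure D3:**
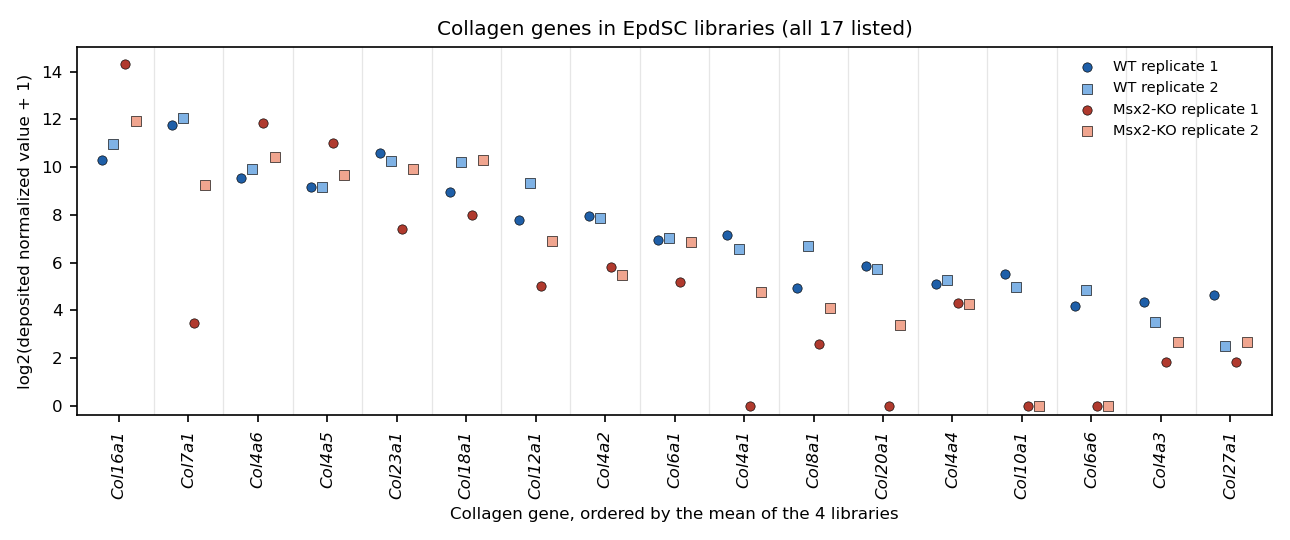
Deposited normalized values of the 17 collagen genes listed in EpdSCs, as log2(value + 1), with genes ordered by their mean and 1 point for each of the 2 WT and 2 Msx2-KO libraries. Col16a1, Col4a6 and Col4a5 show both Msx2-KO points on top, Col7a1 shows them at the bottom with replicate 1 far below replicate 2, and Col10a1 and Col6a6 sit at 0 in both Msx2-KO libraries.

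Col10a1 and Col6a6 were called lower, from low WT values and from 0 in both Msx2-KO libraries. Such zeros show no spread in Msx2-KO, and the pseudocount sets the size of the change (-8.54 to -2.24 for Col10a1 over the alternatives). Genes listed at 0 were more frequent in Msx2-KO EpdSCs (20.2% and 5.82%), as given above. These calls therefore cannot tell lower expression from values lost to detection. Col10a1, a short-chain collagen best known from growth plate cartilage, had values of 45.5 and 30.4 in WT and was listed at 0 in both Msx2-KO libraries (adjusted p = 0.0266 from limma). Col6a6, one of the further chains of type VI, had 17.3 and 27.5 in WT and was likewise listed at 0 in both (adjusted p = 0.0282). Both calls were lost without either WT library, with adjusted p between 0.268 and 0.288, as were all calls over the whole table, and that of Col6a6 also with a pseudocount of 10 (adjusted p = 0.0675). Col10a1 shares exon sequence with Nt5dc1 on the other strand and Col6a6 with a short unclassified transcript, so reads of these neighbours cannot be separated without strand.

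Col7a1, the chain with the highest level per kb in WT, stood far lower in Msx2-KO. Its values were 3447 and 4317 in WT EpdSCs and 10.2 and 615 in Msx2-KO EpdSCs, where replicate 1 was almost devoid of it. The log2 fold change on the log2(value + 1) scale was -5.54 (SE 2.15, adjusted p = 0.163). Without Msx2-KO replicate 1 it was -2.65 and called (adjusted p = 0.0329), and without replicate 2 it was -8.43 and called (adjusted p = 0.0088), while without either WT library it was not called (adjusted p = 0.558 and 0.559). Col18a1, the multiplexin, overlapped, with 497 and 1175 in WT, against 256 and 1241 in Msx2-KO.

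The pair Col4a5 and Col4a6, which make up an epithelial type IV network, were both higher in Msx2-KO EpdSCs. Col4a6 had values of 753 and 958 in WT, against 3649.6 and 1391 in Msx2-KO (log2 fold change 1.41, SE 0.69, adjusted p = 0.222). Col4a5 had 569.7 and 579 in WT, against 2068 and 816 in Msx2-KO (log2 fold change 1.18, SE 0.67, adjusted p = 0.268). Replicate 1 was the higher Msx2-KO library for both, and both were called higher only when replicate 2 was left out (adjusted p = 0.0233 and 0.0159). Their ratio per exon length, Col4a6 over Col4a5, was 1.11 and 1.40 in WT, against 1.49 and 1.44 in Msx2-KO. Both Msx2-KO ratios lay above both WT ratios, as in HFSCs, but by far less than there.

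The other type IV pairs lay lower in Msx2-KO EpdSCs. Col4a2 had 246 and 234 in WT, against 54.8 and 43.1 in Msx2-KO (log2 fold change -2.28, SE 0.47, adjusted p = 0.0672), a difference that both Msx2-KO libraries shared. Col4a1 had 139.7 and 94.8 in WT, against 0 and 26.3 in Msx2-KO (log2 fold change -4.47, SE 1.80, adjusted p = 0.17). Col4a4 had 33.6 and 37.9 in WT, against 19.1 and 18.2 in Msx2-KO (adjusted p = 0.235), and Col4a3 lay between 2.55 and 19.5 in the 4 libraries. All 4 lay lower without overlap, and none was called with all libraries and a pseudocount of 1. Col4a2 was called with a pseudocount of 10 (adjusted p = 0.0482) and without either Msx2-KO library (adjusted p = 0.03 and 0.0141), fits that for all genes called 12.9% higher and 24.7% lower without replicate 1 and 23.1% and 40.9% without replicate 2.

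Col16a1, a FACIT, had the highest level per kb of exon in both Msx2-KO EpdSC libraries, where Col7a1 led in WT. It had values of 1262 and 2020.2 in WT, against 20367 and 3917 in Msx2-KO. Both Msx2-KO libraries were above WT, but by unequal amounts, and the log2 fold change was 2.48 (SE 1.01, adjusted p = 0.172 from limma). It was 3.67 without replicate 2 of Msx2-KO and 1.29 without replicate 1. Without WT replicate 1 it was 2.14, and without WT replicate 2 it was 2.82. The transmembrane collagen Col23a1 had 1521 and 1207 in WT, against 168 and 962 in Msx2-KO (log2 fold change -1.75, SE 1.03, adjusted p = 0.28). Col12a1 had 219.9 and 637 in WT, against 31.8 and 119 in Msx2-KO (log2 fold change -2.58, SE 0.99, adjusted p = 0.16), so it lay below WT in both cell types. Col20a1 also did, with 57.4 and 52.2 in WT, against 0 and 9.44 in Msx2-KO here (adjusted p = 0.123).

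Col6a1 in EpdSCs had 122 and 131 in WT, against 35.7 and 115 in Msx2-KO (log2 fold change -0.97, SE 0.76, adjusted p = 0.391). Its second Msx2-KO library was close to WT, so the difference rested mostly on replicate 1, without which the log2 fold change was -0.13. Col8a1 had 29.2 and 101 in WT, against 5.09 and 16.2 in Msx2-KO (adjusted p = 0.164), and Col27a1, the 1 fibril-forming chain listed, stayed between 2.55 and 23.8.

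The share of each structural class in the summed collagen level describes the make-up of the family. Levels were set per kb of exon for this purpose. In HFSCs the beaded filament class took 22.4% and 21.0% of the family in WT, against 6.52% and 12.6% in Msx2-KO, and the basement membrane network took 12.0% and 10.4% in WT, against 25.8% and 20.9% in Msx2-KO. In both classes the shares did not overlap between genotypes. The basement membrane level per kb itself overlapped (166 and 156 in WT, against 164 and 194 in Msx2-KO). The family total was lower in Msx2-KO (636 and 929, against 1378 and 1507 in WT). The anchoring fibril share was 16.6% and 21.1% in WT, against 9.65% and 19.7% in Msx2-KO and overlapped, as did the short-chain share at between 15.7% and 18.9%. In EpdSCs the anchoring fibril took 28.5% and 28.7% in WT, against 0.0256% and 4.49% in Msx2-KO, whereas FACITs, almost all of them Col16a1, took 18.1% and 24% in WT, against 78.0% and 44.3% in Msx2-KO. The EpdSC family total overlapped between genotypes (1174 and 1464 in WT, against 3871 and 1331 in Msx2-KO). These shares and totals were not tested. By construction a larger share of 1 class lowers those of the others, and a lower level of 1 class raises them.

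**Figure D4:**
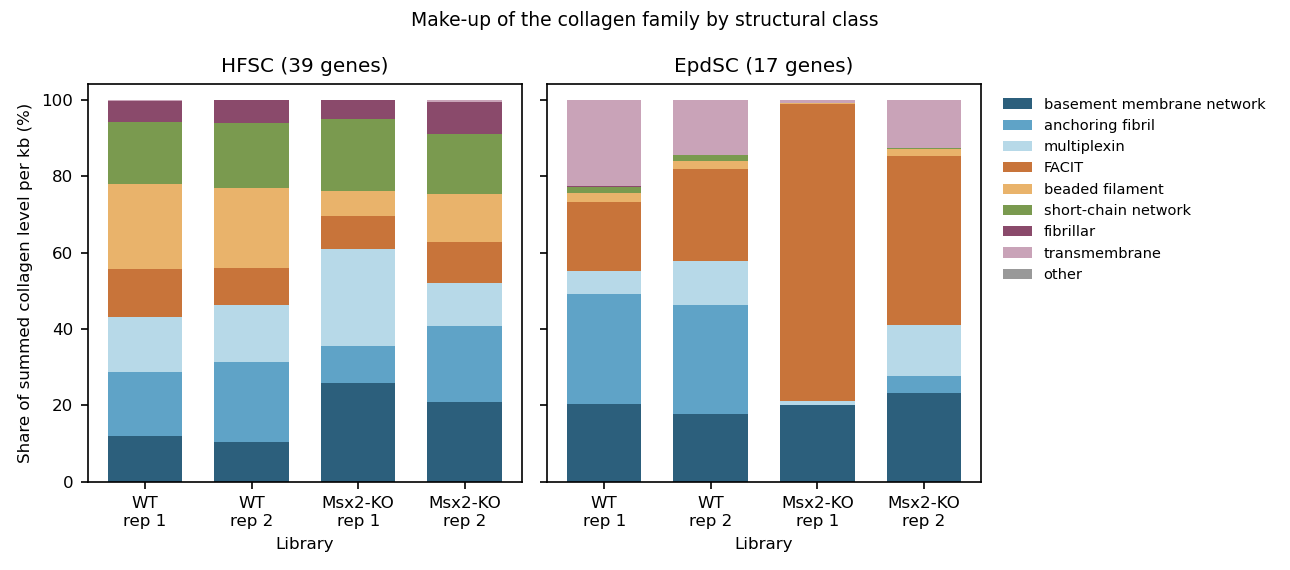
Share of each structural class in the summed collagen level per kb of exon, in percent, with 1 bar for each library of HFSCs (39 genes) and EpdSCs (17 genes). In HFSCs the beaded filament share is 22.4% and 21.0% in WT, against 6.52% and 12.6% in Msx2-KO, and in EpdSCs the FACIT share is 18.1% and 24% in WT, against 78.0% and 44.3% in Msx2-KO.

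The 17 collagens listed for both cell types were set on a common per-length scale, as parts per 1000000 over the 14987 nuclear genes that both tables list. The tables were normalized separately and WT ages differ, so levels are placed side by side without a test. Among WT libraries Col6a1 was 263 and 213 in HFSCs and 4.29 and 4.76 in EpdSCs, and Col12a1 was 137 and 78.0 in HFSCs and 2.22 and 6.66 in EpdSCs. Col7a1 stood at 253 and 261 in WT HFSCs and at 51.4 and 66.8 in WT EpdSCs. Col4a6 had the opposite order, with 1.45 and 0.743 in WT HFSCs and 14.5 and 19.1 in WT EpdSCs, and Col23a1 too, with 3.16 and 1.55 against 40.7 and 33.5. In Msx2-KO HFSCs Col4a6 was at 13.1 and 13.6, just under the WT EpdSC values. Msx2-KO HFSC and WT EpdSC mice were both 6 months old. Their library names follow the same numbering in the file headers, unlike those of WT HFSCs. What part age or a batch has in this was not tested. Col4a5 showed 30.0 and 25.6 in WT HFSCs, 12.0 and 5.70 in Msx2-KO HFSCs, 13.0 and 13.7 in WT EpdSCs, against 32.1 and 26.8 in Msx2-KO EpdSCs.

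**Figure D5:**
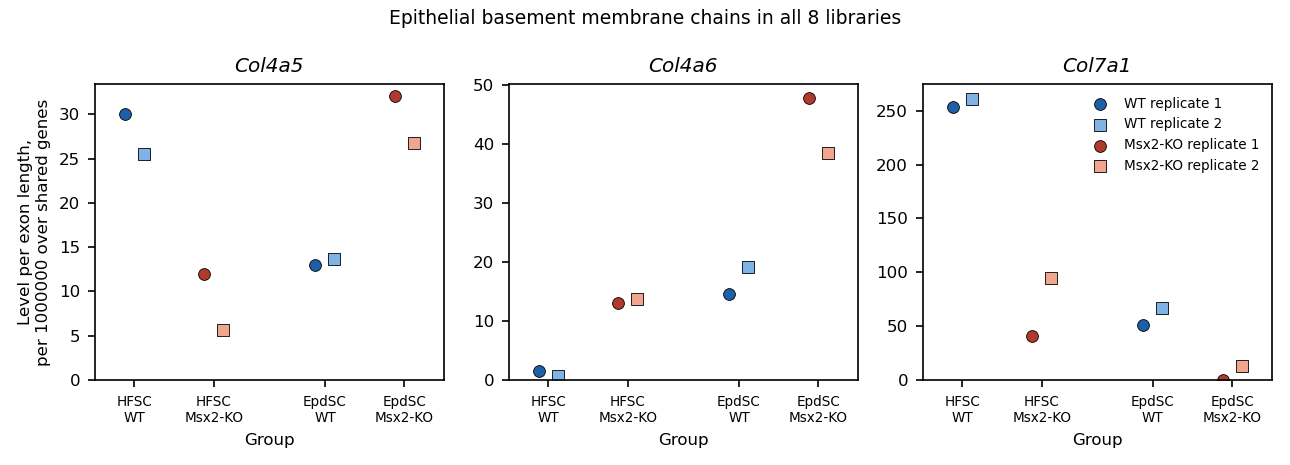
Levels per exon length of Col4a5, Col4a6 and Col7a1, in parts per 1000000 over 14987 genes listed for both cell types, with 1 point for each of the 8 libraries and a linear axis from 0. Col4a6 is higher in Msx2-KO in both cell types, Col4a5 is lower in Msx2-KO HFSCs (12.0 and 5.70) and higher in Msx2-KO EpdSCs (32.1 and 26.8), and Col7a1 is lower in Msx2-KO in both.

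Genes that make, export, cut, cross-link and bind collagen were counted from lists of 59 genes. In HFSCs 39 of them were tested and 0 were called, with 13 lower in both Msx2-KO libraries and 7 higher, near the 33.5% and 17.5% of all genes, and a median log2 fold change of -0.02 against -0.14 over all genes. The receptor Itga2, a collagen-binding integrin chain, had 326 and 385 normalized counts in WT, against 122 and 33.1 in Msx2-KO (log2 fold change -2.18, SE 0.72, adjusted p = 0.23). Cspg4, a type VI collagen-binding proteoglycan, had 1932 and 1921 in WT, against 929 and 727 in Msx2-KO (log2 fold change -1.22, SE 0.24, adjusted p = 0.143). Plod1, a lysyl hydroxylase of collagen, had 114 and 104.3 in WT and 0 in both Msx2-KO libraries (adjusted p = 0.143). Fewer genes of any kind had a count in these Msx2-KO libraries, and what part that has here was not tested. P4hb, the shared subunit of prolyl 4-hydroxylase, was higher instead, with 370 and 372 in WT, against 812 and 574 in Msx2-KO (log2 fold change 0.90, SE 0.28, adjusted p = 0.2).

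By stage, the HFSC counts were mixed, and each is to be read against the same 33.5% below and 17.5% above. Of 15 tested hydroxylation and folding genes 4 were higher and 4 lower in both Msx2-KO libraries, of 6 export genes 2 were higher and 1 lower, and of 5 propeptide processing genes none was either. Both tested cross-linking genes were lower, among them Loxl2, a lysyl oxidase-like enzyme, with 11.1 and 16.2 in WT and 0 in both Msx2-KO libraries. For Loxl2, as for Plod1, what part lost detection has was not tested. Among 5 fibril-binding proteoglycans 1 was higher, Bgn, with 23.0 and 19.8 in WT, against 86.0 and 211 in Msx2-KO, and 2 were lower, with Aspn at 199.8 and 234 in WT, against 32.1 and 21.3 in Msx2-KO. Of 6 receptors 4 were lower and none higher.

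In EpdSCs 33 of the 59 genes were tested, 1 was called lower and 0 higher (7.78% and 1.57% of all genes), and 16 lay below and 8 above WT without overlap (44.5% and 27.8% of all genes). The median log2 fold change was -1.48, against -0.64 over all genes. The called gene was Itga1, the α1 integrin chain that binds collagen IV, with 52.0 and 47.4 in WT, against 0 and 0.674 in Msx2-KO (log2 fold change -5.29, SE 0.53, adjusted p = 0.0266 from limma). As for Col10a1 and Col6a6, this call cannot tell lower expression from values lost to detection. Ddr2, a receptor tyrosine kinase for fibril collagens, had 572 and 267 in WT, against 6.37 and 21.6 in Msx2-KO (adjusted p = 0.051). All 3 tested propeptide processing genes were lower, with Adamts14, a procollagen N-proteinase, at 1029 and 1274 in WT, against 24.2 and 135 in Msx2-KO (adjusted p = 0.0793). The folding genes did not share this direction, since 7 of 14 were higher and 4 lower. P4hb stood at 3273 and 3263 in WT, against 15110.1 and 13545 in Msx2-KO (adjusted p = 0.0713), and Crtap, a part of the prolyl 3-hydroxylation complex, at 529 and 439 in WT, against 7611 and 2176 in Msx2-KO (adjusted p = 0.0935). Of 6 export genes 2 were lower and 0 higher, the 1 cross-linking gene (Loxl4) and the 1 proteoglycan tested were lower, and of 8 receptors 5 were lower and 1 higher.

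Because Col4a5 and Col4a6 lay in opposite directions in HFSCs and in the same direction in EpdSCs, stretches at the starts of both are shown. They lie on chromosome X of GRCm38 in opposite directions (GENCODE M21), Col4a6 from 141165403 to 141474076 on the minus strand and Col4a5 from 141475385 to 141689234 on the plus strand, and their starts are 1309 bases apart. Each stretch is 120 bases long, read 5′ to 3′ on the strand of its gene (RefSeq, GRCm38.p6), and ends with the GC box, in capitals. It covers chrX:141474092-141474211 (minus) for Col4a6 and chrX:141475275-141475394 (plus) for Col4a5.
Col4a6: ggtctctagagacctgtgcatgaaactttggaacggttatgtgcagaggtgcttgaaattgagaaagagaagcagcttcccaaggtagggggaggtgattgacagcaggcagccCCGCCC
Col4a5: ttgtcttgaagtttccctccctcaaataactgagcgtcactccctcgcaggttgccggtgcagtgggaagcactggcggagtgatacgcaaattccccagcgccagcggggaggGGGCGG
The box begins 21 bases before the RefSeq start of Col4a6, at 141474076 in both annotations, and 30 bases before that of Col4a5. The RefSeq start of Col4a5, 141475419, lies 34 bases inside the gene as GENCODE places it, so its box lies within the first GENCODE exon. Windows of 300 bases around the start (250 before and 50 after) were found for 30 members, 33 windows in all, and searched on both strands. A GC box, GGGCGG, was in 21 of the 33 windows (63.6%), against 35.6% of 32817 windows of all genes. A SMAD element, CAGAC, was in 16 (48.5%, against 49.6%), and a homeobox core of the MSX type, TAATTG, in 1 (3.0%, against 8.0%), that of Col11a2. A TATA box, TATAAA, was in 3 (9.1%, against 13.6%). These matches describe the letters in the windows only.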

How the data were processed

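Bulk RNA-seq libraries of sorted HFSCs and EpdSCs, 2 per genotype and cell type, were grouped by the sample labels. Library preparation kept strand, and reads were aligned to GRCm38/mm10 by STAR 2.7.3a in Partek Flow and assigned to GENCODE genes (study's methods and submitters' processing notes). The HFSC values deposited by the authors are estimated counts, not normalized, and multi-gene reads enter as fractions. The EpdSC values deposited by the authors are a normalized signal, scaled per library after a filter, by rules not given in the sources used here, so the depth behind them is unknown. Columns with the authors' fold changes and p-values were not used. Columns not mapped to a sample numbered 0.

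For HFSCs, rounded counts passed filterByExpr, TMM and edgeR 4.0.16 (quasi-likelihood), with the SE taken as the size of the log2 fold change over the square root of F. Normalized counts are per 5563025 counts, the median library total after the filter. For EpdSCs limma 3.58.1 was run on log2(value + 1), which understates fold changes of low genes. Fits and adjustment of p-values covered all genes. A call needed an adjusted p under 0.05 and a fold change over 2. An exact permutation test of 2 against 2 libraries cannot go below p = 0.333. Scripts were tested on simulated data. R 4.3.3, DESeq2 1.42.0 and Python 3.11.15 with matplotlib 3.10.9 were used.

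Lengths are merged exons of GENCODE M21 (GRCm38), whose gene starts equal those deposited for all 39 members. Annotated exons of 12 members overlap another gene. Named were Col6a1, Col6a2, Col1a1, Col1a2, members with a mean of at least 20 in a cell type or an unadjusted p under 0.05, and, from the collagen pathway lists, up to 3 examples a direction with such a p. The members, gene lists and tests were chosen with earlier results of these data known. For HFSCs 15 alternatives were tried and for EpdSCs 13.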

Additional observations from a re-analysis of the deposited data

Results flagged for a closer look

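Col4a5 was lower in both Msx2-KO libraries than in both WT libraries in HFSCs (log2 fold change -1.0) and higher in both in EpdSCs (log2 fold change 1.18). It was the only 1 of the 17 collagens listed for both cell types whose libraries separated in opposite directions. Of all tested genes, 33.5% lay below WT and 17.5% above in HFSCs, and 44.5% below and 27.8% above in EpdSCs. The share of all genes that separated in opposite directions was not computed, so 1 of 17 is not read as particular to collagens. The difference between the cell types was not tested, since the tables were deposited in different units and the ages of the WT mice differ.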

How the results depend on the processing

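No HFSC collagen was called by edgeR, 3 were by DESeq2 (1 higher and 2 lower) and 0 by limma-trend. Over all genes edgeR called 0 in HFSCs. DESeq2 called 323 higher and 351 lower, and limma-trend 158 and 1249. With library totals edgeR called 16 and 35, and with at least 10 counts in every library 2 and 0. Same-numbered libraries did not deviate together (correlation -0.0549 in HFSCs and -0.0225 in EpdSCs), so the numbers do not pair the samples. With the replicate block 2 HFSC collagens were called (Col6a1 and Col6a2, lower), among 145 genes higher and 86 lower, and in EpdSCs the block called Col10a1 and Col6a6, as did the fit without it. The HFSC median over members of -0.34 became -0.82 by limma-trend, -1.30 with library totals, -0.68 without mitochondrial and ribosomal RNA genes, -1.29 with no filter, -0.92 with at least 10 counts in every library and -1.10 with the block. With no filter 20 of 39 members lay below WT (51.3%, against 38.6% of all genes), in place of 11 of 24. Directions of the members named by rule reversed for Col16a1 (0.01 by DESeq2, 0.01 with RLE size factors, 0.06 with at least 10 counts in every library), Col4a2, Col4a3 and Col4a4 (-0.61, -0.29 and -0.41 with library totals) and Col5a1 (-0.82 by limma-trend, -1.16 with the block), none of them called, and the cause was not tested. Among the members with a mean under 20, Col6a3 and Col6a6 turned to -1.49 and -0.39 with the block and Col23a1 to 0.04 by DESeq2.

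Leaving out 1 library at a time, HFSC collagens called ranged from 0 to 19, the median from -1.32 to -0.29 and members below WT from 11 to 21. The fit with most calls (without Msx2-KO replicate 2) called 65.5% of the members and 59.1% of all genes, and put 72.4% of the members and 58.2% of all genes below WT. EpdSC collagens called ranged from 0 (without either WT library) to 11 (without Msx2-KO replicate 2, 64.7% of the members, against 63.9% of all genes). Log2 fold changes that turned sign ranged from -8.13 to 0.73 for Col14a1, -0.41 to 0.26 for Col16a1, -1.78 to 0.18 for Col4a1, -0.63 to 0.87 for Col4a2, -0.40 to 1.05 for Col4a3, -0.12 to 0.76 for Col4a4, -9.29 to 2.95 for Col5a1, -1.28 to 2.65 for Col8a1, -7.06 to 0.93 for Col23a1 and -0.12 to 1.23 for Col6a3 in HFSCs, and -1.57 to 0.70 for Col18a1 in EpdSCs. Over all EpdSC genes, calls of 255 higher and 1263 lower became 1192 and 2682 at an adjusted p under 0.1, 162 and 949 with a pseudocount of 0.1, 619 and 1354 with one of 10, and 684 and 1448 with a trend in limma. For the named members, 162 of the HFSC values under the other alternatives kept direction and side of the threshold, 5 gained a call and 8 reversed. In EpdSCs 103 kept both, 1 gained a call (Col4a2) and 1 lost it (Col6a6), both with a pseudocount of 10. edgeR on reads recovered from EpdSC values was not run, since those values hold fractions of reads. With counts of 14 and 4 for Col4a6 in WT HFSCs and 2 libraries per group, depth and replication limit what the tests could show.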
